A study of Homo sapiens with 18 samples.

Results

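Adding PIK75 to STA9090 was examined in NCI-H295R, an established steroid-producing line from a human carcinoma of the adrenal cortex, by setting the 3 libraries of cells given both agents (STA9090+PIK75) against the 3 libraries of cells given STA9090 alone. These are 6 of the 18 libraries of the series, and 15787 of the 58870 genes in the expected-count table passed the count filter and were tested. The groups used here were, each with 3 libraries, STA9090+PIK75 against STA9090, PIK75 against untreated cells, and STA9090+BGT226 as a further combination. Per the study design, exposure lasted 48 h at a stated 20 nM and the 3 libraries of a group are biological replicates of 1 cell line. How much of each agent a combination held, and in which vehicle, is not stated in the sources used here, and p-values measure the spread between these replicates only.

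STA9090, also called ganetespib, inhibits the chaperone HSP90, which folds many kinases and steroid receptors. PIK75 inhibits the alpha catalytic subunit of class I PI3-kinase, which passes growth factor signals on to AKT and mTOR, and it is also known to inhibit CDK9, the kinase that releases paused RNA polymerase II. BGT226 inhibits PI3-kinase and mTOR. Adrenocortical cells take up cholesterol, move it into mitochondria and convert it stepwise to steroids under the control of the nuclear receptor NR5A1, and the response of such transcripts to the added agent leads the results below.

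Library totals were 12192519, 13522997 and 13022005 counts with STA9090+PIK75, and 15227477, 13689219 and 12615637 with STA9090. Transcripts of RNA polymerase III took 35.9 to 40.3% of counts with STA9090+PIK75 and 31.4 to 38.2% with STA9090, and mitochondrial mRNAs took 6.43 to 10.5% with STA9090+PIK75 and 6.39 to 9.73% with STA9090, so that the groups overlapped in both. The first principal component of the 6 libraries held 52.4% of their variance and separated the groups. The second, with 17%, set STA9090 replicate 1 apart from the other libraries at a score of 33.4. The cell type label was checked against markers: all 10 adrenocortical markers were detected, with a summed level of 1030 to 1080 CPM (counts relative to library size, scaled by TMM) with STA9090+PIK75 and 2090 to 2700 CPM with STA9090. Markers of adrenal medulla summed to 0.444 to 1.34 CPM with STA9090+PIK75 and 0.698 to 1.15 CPM with STA9090, with TH and DBH at 0 in all 6 libraries, and those of leukocytes to 2.07 to 2.43 CPM with STA9090+PIK75 and 1.4 to 2.02 CPM with STA9090, with PTPRC and CD3E at 0. Endothelial markers summed to at most 0.221 CPM with STA9090+PIK75 and 0.19 CPM with STA9090, with VWF and CDH5 at 0.

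With PIK75 added, 2787 genes (17.7% of those tested) were higher and 3127 (19.8%) were lower than with STA9090 alone, at an adjusted p under 0.05 in edgeR's quasi-likelihood test with Benjamini-Hochberg adjustment. Most changes were modest, with a median absolute log2 fold change of 0.54 among the genes called. A change of at least 2-fold was seen for 520 higher genes (3.29%) and 449 lower genes (2.84%). The log2 fold change of all genes tested had a median of 0 and ran between -0.85 and 0.91 from its 5% to its 95% quantile. In 3541 genes (22.4%) all 3 STA9090+PIK75 libraries lay above all 3 STA9090 libraries, and in 3640 (23.1%) all lay below. Among the genes near the count filter, SPECC1L-ADORA2A was kept with 59 counts over the 18 libraries and AC073476.3 was not kept with 148, with at most 15 counts in a library for the kept gene and 14 for the other.

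**Figure D1:**
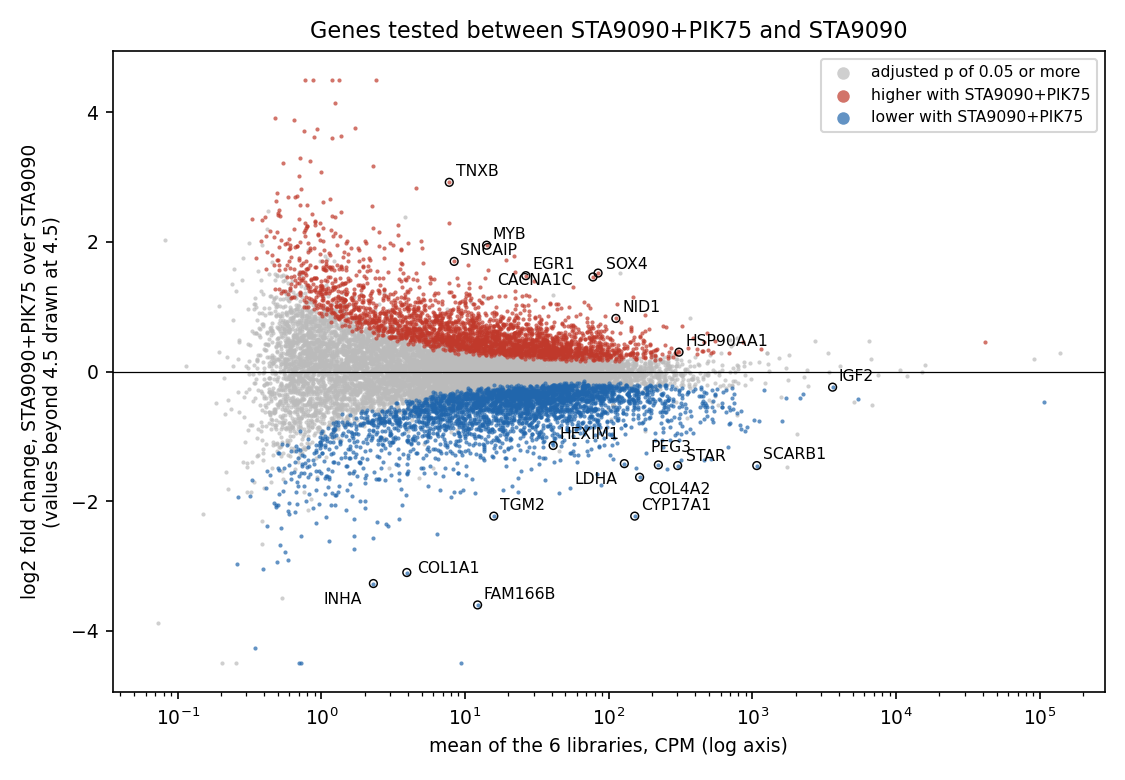
Log2 fold change of STA9090+PIK75 over STA9090 against the mean level of the 6 libraries (CPM, log axis), 1 point per gene tested, coloured by the call at an adjusted p of 0.05. The 2787 higher and 3127 lower genes lie on both sides of 0, and the steroidogenic CYP17A1 and SCARB1 stand out among well expressed genes on the lower side.

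Transcripts of the steroid pathway were lower as a group. Of 24 listed genes of steroidogenesis and adrenocortical identity 19 were tested, of which 0 were higher and 16 were lower, with a median log2 fold change of -1.03, against a share of 19.8% lower and a median of 0 over all genes. Counts of the later lists against STA9090 are to be read beside the shares over all genes, 17.7% higher and 19.8% lower. CYP11B1, CYP11B2, TSPO, NR5A2 and MRAP2 had at most 14 counts in any library and were not tested. In bulk RNA, fewer cells of a type and less RNA per cell cannot be told apart.

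The proximal promoters of 4 members are shown because these steroid enzymes lead the results, and the half-site AAGGNCA, bound by NR5A1, was searched in them on both strands. The sequences are from RefSeq on GRCh38.p14, 250 bases before to 50 after the gene start, 5′ to 3′ on the strand of the gene, with matches to the half-site or its reverse complement in capitals. CYP17A1 lies at chr10:102837364-102837663 on the minus strand, CYP11A1 at chr15:74367597-74367896 on the minus strand, CYP21A2 at chr6:32038165-32038464 on the plus strand and HSD3B2 at chr1:119414681-119414980 on the plus strand.
CYP17A1: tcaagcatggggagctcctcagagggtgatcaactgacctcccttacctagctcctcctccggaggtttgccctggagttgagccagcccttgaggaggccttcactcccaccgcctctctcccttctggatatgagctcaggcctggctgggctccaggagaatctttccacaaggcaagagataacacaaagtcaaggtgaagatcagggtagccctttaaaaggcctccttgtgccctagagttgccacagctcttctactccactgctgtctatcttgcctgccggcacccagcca
CYP11A1: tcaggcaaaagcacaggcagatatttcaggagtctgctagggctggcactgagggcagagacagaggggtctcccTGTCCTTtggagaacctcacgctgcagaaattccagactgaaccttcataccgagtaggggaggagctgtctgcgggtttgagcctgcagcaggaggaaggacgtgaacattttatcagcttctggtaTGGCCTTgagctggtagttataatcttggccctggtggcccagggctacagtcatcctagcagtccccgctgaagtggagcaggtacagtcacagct
CYP21A2: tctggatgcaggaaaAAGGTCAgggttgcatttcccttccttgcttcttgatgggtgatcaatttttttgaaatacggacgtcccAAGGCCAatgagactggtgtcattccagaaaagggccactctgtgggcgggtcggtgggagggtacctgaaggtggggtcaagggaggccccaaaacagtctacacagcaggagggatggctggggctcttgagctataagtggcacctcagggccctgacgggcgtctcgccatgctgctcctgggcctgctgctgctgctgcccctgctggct
HSD3B2: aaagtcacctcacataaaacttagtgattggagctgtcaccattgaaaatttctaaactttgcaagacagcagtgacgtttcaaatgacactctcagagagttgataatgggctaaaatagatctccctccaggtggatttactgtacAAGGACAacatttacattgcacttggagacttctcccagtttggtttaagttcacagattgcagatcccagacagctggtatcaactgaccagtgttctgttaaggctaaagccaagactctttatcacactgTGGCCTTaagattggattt
In this window CYP11A1 held matches starting at -175 and -47 from the gene start, CYP21A2 at -235 and -165, HSD3B2 at -102 and 31, and CYP17A1 held 0. The RefSeq table held 13 promoters of the list and 10640 of all genes tested, of which 4 (30.8%) and 1371 (12.9%) contained the half-site. The share was 31.2% (10 of 32) for nuclear-encoded respiratory chain subunits and 23.1% (3 of 13 each) for the BCL2 family and snoRNA host RNAs. Among the genes lower with PIK75 added 12.9% of promoters held it, and among those higher 12.7%. A match describes letters and not a bound site, and only this pattern was searched for NR5A1. A promoter with 0 matches, such as that of CYP17A1, may hold a site of other letters or outside the window.

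The transcripts of SCARB1 and STAR, which serve cholesterol entry, were lower. SCARB1, the receptor that takes up cholesterol from HDL, had 537, 565 and 623 CPM with STA9090+PIK75, against 1580, 1560 and 1580 CPM with STA9090. The groups were far apart (log2 fold change -1.45, SE 0.0935, edgeR adjusted p = 5.93e-10). STAR, which moves cholesterol into mitochondria, had 158, 165 and 162 CPM with STA9090+PIK75, against 405, 446 and 474 CPM with STA9090. Every library with both agents again lay below every library with STA9090 (log2 fold change -1.45, SE 0.0796, edgeR adjusted p = 9.63e-11).

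Transcripts of the enzymes that follow showed the same direction. CYP11A1, the side-chain cleavage enzyme that makes pregnenolone, had 130, 124 and 141 CPM with STA9090+PIK75, against 339, 364 and 418 CPM with STA9090 (log2 fold change -1.51, SE 0.0922, edgeR adjusted p = 2.98e-10). CYP17A1, which opens the route to cortisol and androgens and is annotated at chr10:102830531-102837533, had 55.6, 51.1 and 53.4 CPM with STA9090+PIK75, against 238, 234 and 280 CPM with STA9090. It was the most strongly lowered of these enzymes (log2 fold change -2.23, SE 0.0849, edgeR adjusted p = 6.3e-13). CYP21A2, the steroid 21-hydroxylase, had 262, 261 and 247 CPM with STA9090+PIK75, against 557, 666 and 768 CPM with STA9090 (log2 fold change -1.37, SE 0.121, edgeR adjusted p = 3.74e-08). A near-identical pseudogene copy makes the assignment of its reads uncertain. HSD3B2, which converts pregnenolone to progesterone, had 26, 30.2 and 27.1 CPM with STA9090+PIK75, against 48, 53.6 and 51.8 CPM with STA9090, a smaller difference without overlap (log2 fold change -0.88, SE 0.103, edgeR adjusted p = 1.66e-06). FDX1, the electron donor of the mitochondrial enzymes, had 27, 29.7 and 28.8 CPM with STA9090+PIK75, against 52.6, 47.2 and 50 CPM with STA9090 (log2 fold change -0.81).

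Receptors and regulators of the pathway were lower too. NR5A1 had 388, 413 and 368 CPM with STA9090+PIK75, against 442, 567 and 639 CPM with STA9090, with a narrow gap between the groups (log2 fold change -0.49, SE 0.117, edgeR adjusted p = 0.00242). MC2R, the receptor for ACTH, had 1.52, 1.25 and 1.78 CPM with STA9090+PIK75, against 4.89, 4.38 and 4.57 CPM with STA9090 (log2 fold change -1.60, SE 0.169, edgeR adjusted p = 4.07e-07). INHA, the inhibin alpha subunit, was the lowest at 0.714, 0.368 and 0.222 CPM with STA9090+PIK75, against 3.11, 4.84 and 4.57 CPM with STA9090. It rests on few reads (log2 fold change -3.27, SE 0.311, edgeR adjusted p = 1.01e-07). NR0B1, a repressor of NR5A1, had a log2 fold change of -1.03.

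**Figure D2:**
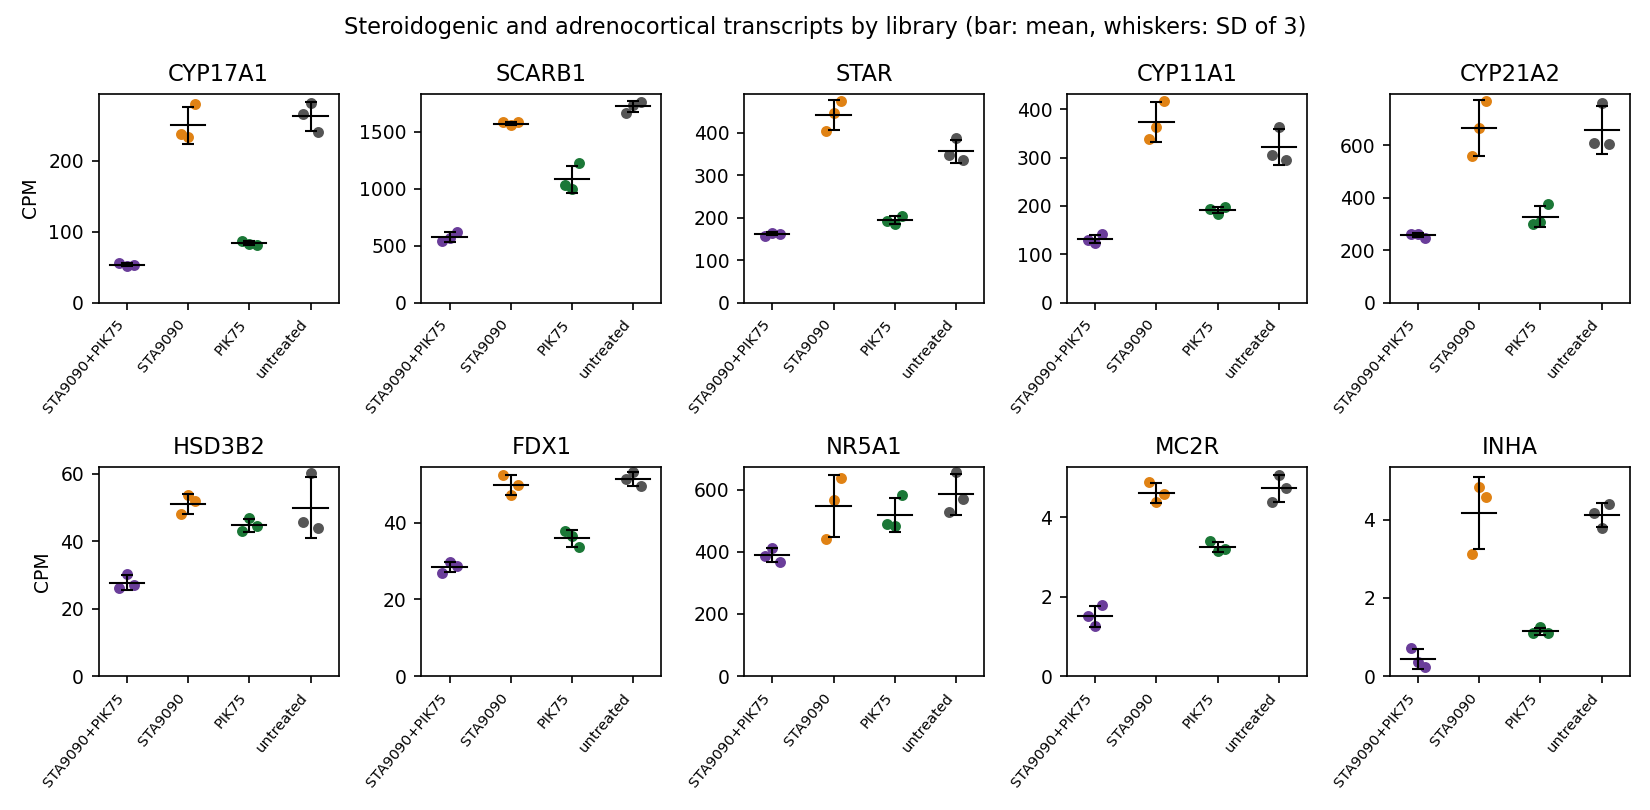
Level in CPM (axis from 0) of 10 adrenocortical transcripts in each library of STA9090+PIK75, STA9090, PIK75 and untreated cells, with a bar at the mean and whiskers of 1 SD over 3 libraries. STA9090+PIK75 libraries lie below all STA9090 libraries in every panel, for example at 51.1 to 55.6 CPM against 234 to 280 CPM for CYP17A1.

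Transcripts of lipid synthesis moved the same way. Of 24 cholesterol synthesis and uptake genes tested, 1 was higher and 19 were lower (median log2 fold change -0.46), and of 14 fatty acid synthesis genes 0 were higher and 11 were lower (median -0.63). FDPS, which makes farnesyl diphosphate, had 154, 145 and 162 CPM with STA9090+PIK75, against 322, 288 and 345 CPM with STA9090 (log2 fold change -1.05, SE 0.0805, edgeR adjusted p = 5.5e-09). The sterol isomerase EBP had a log2 fold change of -1.15, the sterol oxidase MSMO1 of -1.08 and lanosterol synthase LSS of -0.95, all with an edgeR adjusted p of at most 4.11e-07. SCD, the stearoyl-CoA desaturase, had 655, 601 and 714 CPM with STA9090+PIK75, against 1230, 1220 and 1140 CPM with STA9090. That is a log2 fold change of -0.86 (SE 0.0931, edgeR adjusted p = 5.26e-07), and SREBF1, which drives fatty acid genes, had -0.79, ME1, the NADPH-making malic enzyme, -0.84 and the desaturase FADS1 -0.72. The sterol reductase TM7SF2 was the cholesterol gene that was higher, with 3.12, 4.56 and 3.4 CPM with STA9090+PIK75, against 2.54, 1.08 and 2.28 CPM with STA9090. Without STA9090+PIK75 replicate 2 its log2 fold change of 0.90 became 0.72 with an edgeR adjusted p of 0.0548.

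Basement membrane genes were also among the most lowered. Of 28 matrix genes tested 4 were higher and 19 were lower, with a median log2 fold change of -0.61. COL4A2, a chain of basement membrane collagen, had 78.4, 80.6 and 81.5 CPM with STA9090+PIK75, against 260, 232 and 253 CPM with STA9090 (log2 fold change -1.63, SE 0.0867, edgeR adjusted p = 5.82e-11). Its neighbour COL4A1 had 21.2, 24.6 and 26.5 CPM with STA9090+PIK75, against 97.3, 82.8 and 70.1 CPM with STA9090 (log2 fold change -1.79). COL18A1, the source of endostatin, had 7.77, 9.35 and 7.33 CPM with STA9090+PIK75, against 28.4, 29.3 and 28.7 CPM with STA9090 (log2 fold change -1.82). NID1, the linker protein nidogen, went the other way with 141, 140 and 149 CPM with STA9090+PIK75, against 80.8, 83.7 and 79.4 CPM with STA9090 (log2 fold change 0.82, SE 0.0679, edgeR adjusted p = 1.61e-08). COL7A1, which forms anchoring fibrils, was higher with a log2 fold change of 1.65. TNXB, tenascin X, had 14.7, 15.9 and 10.6 CPM with STA9090+PIK75, against 1.59, 1.38 and 2.55 CPM with STA9090 (log2 fold change 2.92). A partial copy of the gene and its overlap with CYP21A2 on the other strand make its reads uncertain. Fibroblast markers summed to 0.804 to 1.33 CPM with STA9090+PIK75 and 6.6 to 8.7 CPM with STA9090. COL1A1, the only marker of that list tested, had 0.625, 0.662 and 1.11 CPM with STA9090+PIK75, against 6.03, 6.91 and 8.26 CPM with STA9090 (log2 fold change -3.10). None of those markers was among the 28 matrix genes tested, whose lowest log2 fold change was -1.82. Whether the falls of COL1A1 and of the matrix genes are linked was not tested.

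Among other genes with large falls, FAM166B had 1.87, 1.69 and 2 CPM with STA9090+PIK75, against 21.1, 24.3 and 22.6 CPM with STA9090 (log2 fold change -3.60, SE 0.144, edgeR adjusted p = 8.34e-13). The crosslinking enzyme TGM2, transglutaminase, had 4.82, 5.81 and 5.92 CPM with STA9090+PIK75, against 23.9, 25.7 and 29.2 CPM with STA9090 (log2 fold change -2.23). FGFR4, a receptor for fibroblast growth factors, had a log2 fold change of -1.85, as had FABP3, a fatty acid binding protein. The membrane protease TMPRSS9 had -2.50, the lectin LGALS1 -1.87 and LPA, apolipoprotein(a), -1.83. LPA has close copies, and its reads may be shared with them.

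Large rises included transcription factors and channels. MYB, the proto-oncogene, had 25, 21.6 and 20.8 CPM with STA9090+PIK75, against 6.22, 6.38 and 4.66 CPM with STA9090 (log2 fold change 1.95, SE 0.14, edgeR adjusted p = 2.72e-09). SOX4 had 123, 129 and 124 CPM with STA9090+PIK75, against 45.2, 41.1 and 44.6 CPM with STA9090 (log2 fold change 1.52, SE 0.0729, edgeR adjusted p = 1.39e-11). CACNA1C, the pore of an L-type calcium channel, had 113, 117 and 112 CPM with STA9090+PIK75, against 44.3, 42 and 37.9 CPM with STA9090. The replicates of both groups were tight (log2 fold change 1.46, SE 0.0656, edgeR adjusted p = 5.47e-12). The calcium-activated channel TRPM4 had a log2 fold change of 1.43, SNCAIP, which binds alpha-synuclein, 1.70, SRGAP3, a GTPase-activating protein, 1.91 and TSTA3, which makes GDP-fucose, 1.72. Among genes of other types the pseudogene POLR2J4 had 1.53 and the antisense RNA ZNF213-AS1 had 1.44. The pseudogene has near-identical relatives, and whether counting used strand is not stated.

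The cytosolic HSP90 genes moved little. HSP90AB1 had 685, 680 and 714 CPM with STA9090+PIK75, against 679, 643 and 756 CPM with STA9090 (log2 fold change 0.00, SE 0.0889, edgeR adjusted p = 0.999). HSP90AA1, the inducible form, had 325, 355 and 338 CPM with STA9090+PIK75, against 326, 240 and 263 CPM with STA9090, and the groups overlapped. Its log2 fold change of 0.30 had an edgeR adjusted p of 0.0233, and without STA9090 replicate 2 or 3 or STA9090+PIK75 replicate 2 (log2 fold changes of 0.20, 0.26 and 0.26) it was no longer called. Of 28 listed heat shock chaperones, among them the mitochondrial HSPD1, 8 were higher and 6 were lower. Their median was 0.14, or 0.06 without STA9090+PIK75 replicate 1. The higher count became 3 without STA9090 replicate 2, 5 without STA9090+PIK75 replicate 1 and 4 without STA9090+PIK75 replicate 2. HSPH1, a nucleotide exchange factor of HSP70, had 50.4, 60.4 and 49.8 CPM with STA9090+PIK75, against 39.4, 27.7 and 40 CPM with STA9090 (log2 fold change 0.59, SE 0.116, edgeR adjusted p = 0.0005). The mitochondrial chaperonin HSPD1 was lower (-0.48), as was the small heat shock protein CRYAB (-2.53), which rests on few reads. HSPA1A, whose reads may be shared with the near-identical HSPA1B, had a log2 fold change of 0.33 that lost its call without any of 4 libraries, STA9090 replicate 1 or 2 or STA9090+PIK75 replicate 1 or 2 (0.25 to 0.32). Of 22 genes of the ER chaperones and unfolded protein response, 2 were higher and 5 were lower (median -0.05, or 0 without STA9090 replicate 1). They included HYOU1 at 0.30, EDEM1 at -0.50, PDIA3 at -0.43 and HSP90B1, the HSP90 gene of that list, at -0.38 (edgeR adjusted p = 0.0198, groups overlapping). Without STA9090 replicate 1 or 3, or STA9090+PIK75 replicate 1 or 3, only 3 were lower, and without STA9090+PIK75 replicate 1 or 2 the higher count was 1.

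Of 34 PI3K, AKT and mTOR pathway components 9 were higher and 9 were lower, with a median of -0.04, or 0 without STA9090 replicate 3. PIK3CA, the catalytic subunit that PIK75 targets, had 6.43, 7.36 and 8.29 CPM with STA9090+PIK75, against 12.1, 11.1 and 10.9 CPM with STA9090 (log2 fold change -0.62, SE 0.13, edgeR adjusted p = 0.000881). PHLPP1, a phosphatase of AKT, had 49, 48.6 and 48.2 CPM with STA9090+PIK75, against 27.2, 27.6 and 25.3 CPM with STA9090 (log2 fold change 0.86, SE 0.0753, edgeR adjusted p = 3.25e-08). The inositol phosphatase INPP5E (0.67) and the regulatory subunit PIK3R2 (0.83) were higher too. PIK3CB, another catalytic subunit, had -0.36 and lost its call without STA9090 replicate 1 (-0.31). The regulatory subunit PIK3R1 had -0.43 and lost it without STA9090 replicate 1 (-0.30) or STA9090+PIK75 replicate 1 (-0.36). The adaptor IRS2 had 0.27, which lost its call without STA9090 replicate 1 (0.20) or STA9090+PIK75 replicate 1 (0.24) or 2 (0.25). Of 23 FOXO factors, which AKT holds in check, and their targets, 8 were higher and 8 were lower (median -0.13). The higher count was 5 without STA9090 replicate 1 and 4 without STA9090+PIK75 replicate 2. SESN3 had a log2 fold change of -1.30, FOXO4 of -1.08, catalase CAT of -0.84 and the autophagy gene GABARAPL1 of -0.59, whereas FOXO3 had 0.49.

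Genes that report ERK signalling were mostly higher. Of 15 ERK feedback genes 8 were higher and 3 were lower, with a median of 0.39. The median was 0.24 without STA9090 replicate 3, and 1 was lower without STA9090 replicate 1. SPRY4, an inhibitor of receptor tyrosine kinase signalling, had 13.7, 12.1 and 12.8 CPM with STA9090+PIK75, against 4.31, 5.3 and 4.57 CPM with STA9090 (log2 fold change 1.44, SE 0.135, edgeR adjusted p = 8.54e-08). The ERK phosphatase DUSP5 (0.75), the factor ETV5 (0.63) and PHLDA1 (0.89) were higher, and the related factor ETV4 was lower (-0.55). Of 22 immediate early factors 6 were higher and 7 were lower, beside 17.7% and 19.8% of all genes. EGR1, a zinc finger factor at chr5:138465490-138469315, had 43.6, 37.4 and 36 CPM with STA9090+PIK75, against 12, 15.3 and 14.8 CPM with STA9090 (log2 fold change 1.48, SE 0.129, edgeR adjusted p = 3.06e-08). FOSB (1.17) and FOSL2 (0.99), partners of JUN in AP-1, were higher, whereas JUND (-0.61) and the phosphatase DUSP1 (-0.97) were lower.

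Of 28 genes that control transcription elongation 11 were higher and 3 were lower (median 0.07), and 5 were lower without STA9090 replicate 1. The median was 0.02 to 0.04 without STA9090 replicate 1 or 2 or STA9090+PIK75 replicate 1 or 2. HEXIM1, which holds CDK9 inactive, had 27.9, 25.3 and 23.7 CPM with STA9090+PIK75, against 58.8, 55.5 and 55.1 CPM with STA9090 (log2 fold change -1.14, SE 0.0825, edgeR adjusted p = 2.72e-09). CDK9 itself had 94.1, 99 and 101 CPM with STA9090+PIK75, against 68.1, 66.8 and 67.1 CPM with STA9090 (log2 fold change 0.54, SE 0.0681, edgeR adjusted p = 3.89e-06). Its partner CCNT1 (0.44) and the related kinase CDK12 (0.63) were also higher.

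**Figure D3:**
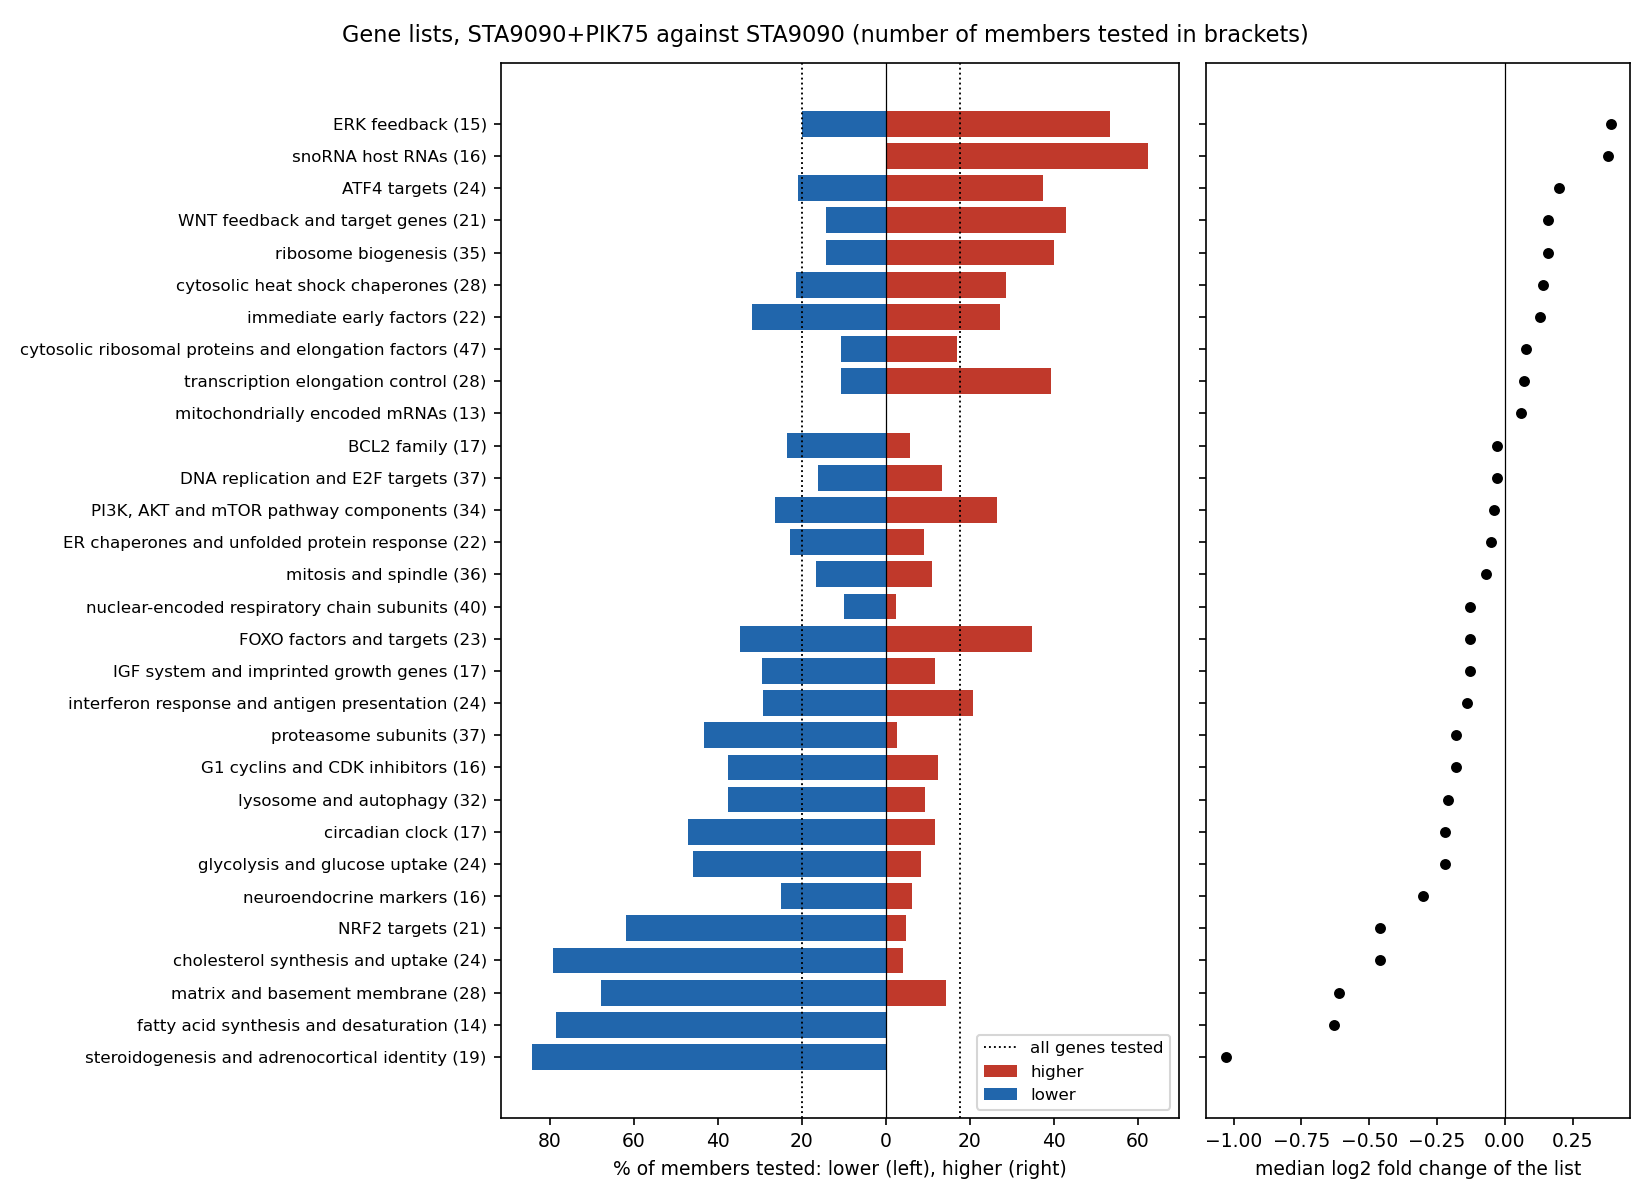
Share of the members tested of each gene list that were lower (left bars) or higher (right bars) with STA9090+PIK75 than with STA9090, with dotted lines at the shares over all genes (19.8% and 17.7%), and the median log2 fold change of each list on the right. Steroidogenesis has a median of -1.03 at the lower end, and ERK feedback (0.39) and snoRNA host RNAs (0.38) lie at the upper end. The list labelled cytosolic heat shock chaperones also holds the mitochondrial HSPD1.

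Cell cycle genes changed little as a group. Of 36 mitosis and spindle genes 4 were higher and 6 were lower (median -0.07, or 0 without STA9090 replicate 1), and of 37 DNA replication and E2F targets 5 were higher and 6 were lower (median -0.03, or 0.01 without STA9090+PIK75 replicate 2). KIF2C, a microtubule depolymerase, had 63.3, 65 and 66.7 CPM with STA9090+PIK75, against 37.2, 41.2 and 41.1 CPM with STA9090 (log2 fold change 0.71). The phosphatase CDC25C had 0.68, whereas the kinase PLK1 (-0.48) and cyclin CCNA2 (-0.42) were lower. RRM2, the ribonucleotide reductase subunit, had 66.7, 57.5 and 73.8 CPM with STA9090+PIK75, against 149, 150 and 134 CPM with STA9090 (log2 fold change -1.13, SE 0.0934, edgeR adjusted p = 1.54e-08). The helicase subunit MCM5 was higher (0.42) and cyclin CCNE1 lower (-0.41). MKI67, the proliferation marker, had -0.44, and the mitotic cyclin CCNB1 had -0.19 with an edgeR adjusted p of 0.0809. Of 16 G1 cyclins and CDK inhibitors 2 were higher and 6 were lower, with CCND3 at -0.78, CDKN2C at -0.42 and CCND2 at 0.34. The higher count was 1 without STA9090 replicate 1 or 3 or without any 1 STA9090+PIK75 library. Of 17 BCL2 family genes 1 was higher, the death-promoting BIK (1.36), and 4 were lower, among them BCL2 (-0.81), BNIP3 (-0.39) and the survival gene MCL1 (-0.26). The call of MCL1 was lost without STA9090 replicate 1 (-0.19). BCL2L1, another survival gene, had 29.3, 35.9 and 33 CPM with STA9090+PIK75, against 30.5, 32.3 and 37.1 CPM with STA9090 (log2 fold change -0.02, SE 0.096, edgeR adjusted p = 0.897).

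Metabolic and redox genes were mostly lower where they moved. Of 21 NRF2 targets, genes of the antioxidant response, 1 was higher and 13 were lower (median -0.46). NQO1, a quinone reductase, had 29.7, 27.5 and 32.4 CPM with STA9090+PIK75, against 55.7, 64.2 and 59.4 CPM with STA9090 (log2 fold change -1.0, SE 0.0914, edgeR adjusted p = 6.33e-08). Glutathione reductase GSR had -0.85 and OSGIN1 had -1.06, whereas the cystine carrier SLC7A11 had 0.45. Without STA9090 replicate 3 the number of higher genes was 2. Of 24 glycolysis genes 2 were higher and 11 were lower (median -0.22). LDHA, lactate dehydrogenase, had 74.9, 63.4 and 71.3 CPM with STA9090+PIK75, against 169, 196 and 196 CPM with STA9090 (log2 fold change -1.42, SE 0.1, edgeR adjusted p = 2.21e-09). The glucose carrier SLC2A1 had -0.79 and aldolase ALDOC had -0.86. The higher count of glycolysis genes was 1 without STA9090 replicate 2 or without any 1 STA9090+PIK75 library. Of 24 ATF4 targets, which serve amino acid supply, 9 were higher and 5 were lower (median 0.20), beside 17.7% and 19.8% of all genes. Without STA9090 replicate 2 or STA9090+PIK75 replicate 1 or 2, 3 were lower. ASNS, asparagine synthetase, had 62.9, 61.7 and 61.9 CPM with STA9090+PIK75, against 26.7, 33.3 and 35 CPM with STA9090 (log2 fold change 0.98, SE 0.118, edgeR adjusted p = 2.35e-06). SLC3A2 (0.77) and the glycine carrier SLC6A9 (0.68) were higher and the factors ATF5 (-1.28) and CEBPB (-0.44) lower.

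In protein turnover, 1 of 37 proteasome subunits was higher and 16 were lower (median -0.18), among them PSMD11 at -0.58. The lower count was 9 or 10 without STA9090 replicate 2 or without any 1 STA9090+PIK75 library. None was higher without STA9090 replicate 1 or 2 or STA9090+PIK75 replicate 1 or 2. Of 32 lysosome and autophagy genes 3 were higher and 12 were lower, with ATP6V1A at -0.63, CTSA at -0.63, TFE3 at -0.62 and BECN1 at 0.66. Ribosome biogenesis genes were 14 of 35 higher and 5 lower (median 0.16), with PES1 at 0.61, TSR1 at 0.57 and NOP2 at 0.42. Here the higher count was 8 without STA9090 replicate 2 and 9 without STA9090 replicate 3 or STA9090+PIK75 replicate 2. Of the lower genes 3 were left without STA9090 replicate 2 or 3, and 2 without STA9090+PIK75 replicate 1. Of 47 cytosolic ribosomal protein and elongation factor genes 8 were higher and 5 were lower, beside 17.7% and 19.8% of all genes. RPLP0 had 0.47 and EEF1B2 -0.87, and both have processed copies. The higher count was 3 to 5 without any 1 library other than STA9090 replicate 3, and 3 were lower without STA9090+PIK75 replicate 2 or 3. Among 16 snoRNA host RNAs 10 were higher and 0 were lower, with a median of 0.38. GAS5 had 101, 82.1 and 85.7 CPM with STA9090+PIK75, against 51.3, 66.4 and 61.6 CPM with STA9090 (log2 fold change 0.59, SE 0.0905, edgeR adjusted p = 4.13e-05), and C6orf48 had 0.62 and SNHG5 0.57.

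Of 21 WNT feedback and target genes, a pathway often active in this carcinoma, 9 were higher and 3 were lower. APCDD1, an inhibitor of WNT, had 188, 189 and 209 CPM with STA9090+PIK75, against 136, 140 and 132 CPM with STA9090 (log2 fold change 0.53). The ubiquitin ligase ZNRF3 was higher (0.47), and the receptor LGR4 (-0.86) and beta-catenin CTNNB1 (-0.45) were lower. Among 17 genes of the IGF system and imprinted growth genes 2 were higher and 5 were lower, and the higher count was 0 without STA9090 replicate 1 or STA9090+PIK75 replicate 2 and 1 without STA9090 replicate 3 or STA9090+PIK75 replicate 1. IGF2, the growth factor made in large amounts by this line, had 3550, 3070 and 3300 CPM with STA9090+PIK75, against 3700, 3990 and 4060 CPM with STA9090. Its log2 fold change of -0.24 had an edgeR adjusted p of 0.0383, and leaving out STA9090 replicate 2 or 3 or STA9090+PIK75 replicate 2 or 3 ended the call (-0.23 to -0.20). PEG3, an imprinted zinc finger gene, had 102, 120 and 135 CPM with STA9090+PIK75, against 367, 293 and 312 CPM with STA9090 (log2 fold change -1.44, SE 0.105, edgeR adjusted p = 2.88e-09). H19, the imprinted RNA next to IGF2, had -0.92, the receptor IGF2R -0.44 and the binding protein IGFBP2 -0.45. The clock genes NR1D1 (-1.34), NR1D2 (-0.67) and TEF (-1.26) were among 8 of 17 lower, and NFIL3 (0.82) was 1 of 2 higher, a count that became 1 without STA9090+PIK75 replicate 2.

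The same agent without STA9090 gave fewer calls: 1340 genes (8.49%, or 853 genes without untreated replicate 1) were higher and 1607 (10.2%) lower with PIK75 than in untreated cells, and no library is shared with the comparison above. Of the 2787 genes higher on STA9090, 721 (25.9% of them and 53.8% of those higher with PIK75 alone) were also higher without it and 24 were lower. Of the 3127 lower ones, 1125 (36% of them and 70% of those lower with PIK75 alone) were also lower and 57 were higher. Across 10400 genes with a mean of at least 5 CPM in the 6 STA9090+PIK75 and STA9090 libraries the log2 fold changes had a Pearson correlation of 0.49 and a Spearman correlation of 0.56, a description across genes that are not independent. Steroidogenesis genes were 1 higher and 12 lower without STA9090 (median -0.51), cholesterol genes 0 and 11, and matrix genes 3 and 11. Mitosis genes were 15 higher and 0 lower without STA9090 (median 0.24).

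Whether the response differed with and without STA9090 was tested as the interaction, the log2 fold change on STA9090 minus that without it. It was positive for 559 genes (3.54%, or 344 genes without STA9090+PIK75 replicate 1) and negative for 904 (5.73%) by edgeR's quasi-likelihood test. Of the 2787 genes higher on STA9090, 450 had a positive and 19 a negative interaction, and of the 3127 lower, 720 had a negative and 4 a positive one. The interaction contains the change on STA9090 itself, from the same libraries. Selecting genes by that change favours an interaction of the same sign, so these splits are not a separate result. EGR1 had 11.3, 14.1 and 15.7 CPM with PIK75, against 14.8, 13.3 and 12.4 CPM in untreated cells, a log2 fold change of 0.01 beside 1.48 on STA9090 (interaction 1.47, edgeR adjusted p = 0.00013). SPRY4 had 0.14 without STA9090 (interaction 1.3), FOSB had -0.05 (1.22) and the membrane carrier SLC35F2 had -0.08 beside 1.13 on STA9090 (1.22). ERK feedback genes had 6 positive and 0 negative interactions, and heat shock chaperones likewise 6 and 0.

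On the negative side, 9 of 19 steroidogenesis genes, 10 of 28 matrix genes and 9 of 36 mitosis genes had a negative interaction. CYP17A1 had a log2 fold change of -1.65 without STA9090 (interaction -0.58, edgeR adjusted p = 0.00316), and HSD3B2 had -0.16 (interaction -0.72). COL4A2 had 222, 191 and 217 CPM with PIK75, against 344, 289 and 345 CPM in untreated cells, a log2 fold change of -0.64 (interaction -1.0, edgeR adjusted p = 5.35e-05). FAM166B had -1.56 without STA9090 (interaction -2.04), PEG3 had -0.47 (-0.97), SESN3 -0.14 (-1.16) and FGFR4 -0.65 (-1.20). The dystrophin gene DMD was higher with PIK75 than in untreated cells (0.91) and lower on STA9090 (-0.56). IGFBP2 did the same (0.62 and -0.45). For SNCAIP, CYP21A2 and HEXIM1 the interaction did not pass the threshold (-0.53, -0.36 and 0.37, edgeR adjusted p of 0.138, 0.194 and 0.0542), which does not show that the responses were equal.

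**Figure D4:**
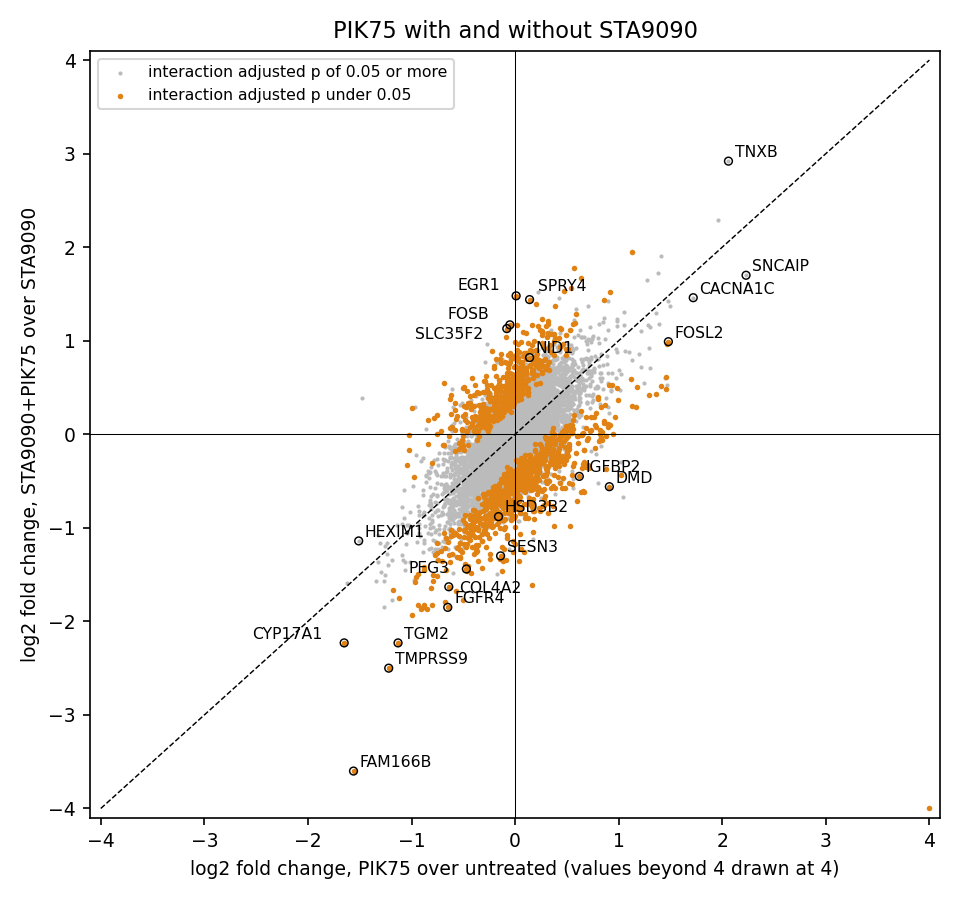
Log2 fold change of STA9090+PIK75 over STA9090 (vertical) against that of PIK75 over untreated (horizontal) for genes with a mean of at least 5 CPM in the 6 libraries of the vertical axis. Genes with a called interaction (orange) lie away from the dashed line of equal change, such as EGR1 at 1.48 and 0.01 and FAM166B at -3.60 and -1.56, and the point in the lower right corner is CU639417.1, which shares reads with near-identical genes.

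BGT226 added to STA9090 gave 3078 higher (19.5%) and 3300 lower genes (20.9%) than STA9090 alone. It shares the STA9090 libraries with the comparison above, so values are given side by side and differences were tested between the combinations, in which those libraries do not enter. STA9090+PIK75 was higher than STA9090+BGT226 for 3306 genes (20.9%) and lower for 3530 (22.4%). Cholesterol genes were 1 higher and 19 lower after PIK75, and 1 and 21 after BGT226. Between the combinations 14 of 24 cholesterol genes were higher and 4 were lower with STA9090+PIK75 (median 0.31). Matrix genes were 4 higher and 19 lower after PIK75, and 14 and 1 after BGT226. Between the combinations 4 of 28 matrix genes were higher and 21 were lower with STA9090+PIK75. Steroidogenesis genes were 0 higher and 16 lower after PIK75, and 5 and 9 after BGT226. Those lower after BGT226 included CYP17A1 (log2 fold change -0.75), STAR (-0.77), CYP11A1 (-0.55) and SCARB1 (-0.57). Between the combinations 1 of 19 steroidogenesis genes was higher and 16 were lower with STA9090+PIK75. Mitosis genes were 4 higher and 6 lower of 36 after PIK75, and 0 and 30 after BGT226 (median -0.50). Proteasome subunits were 1 higher and 16 lower of 37 after PIK75, and 0 and 37 after BGT226 (median -0.72). With these falls after BGT226, 26 mitosis genes were higher and 0 lower with STA9090+PIK75 than with STA9090+BGT226. For proteasome subunits these counts were 34 and 0.

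Single genes showed the contrast, into which the changes after PIK75 and after BGT226 both enter. CYP21A2 had 262, 261 and 247 CPM with STA9090+PIK75, against 1290, 1200 and 1150 CPM with STA9090+BGT226 (log2 fold change -2.24, SE 0.124, edgeR adjusted p = 2.82e-11). HSD3B2 had 26, 30.2 and 27.1 CPM with STA9090+PIK75, against 113, 106 and 94.4 CPM with STA9090+BGT226 (log2 fold change -1.91). Levels with STA9090 alone lay between those of the combinations, at 557, 666 and 768 CPM for CYP21A2 and 48, 53.6 and 51.8 CPM for HSD3B2. The same held for ASNS, at 26.7, 33.3 and 35 CPM. For ASNS the order of the combinations was the opposite, with 62.9, 61.7 and 61.9 CPM with STA9090+PIK75, against 12.1, 7.7 and 8.87 CPM with STA9090+BGT226 (log2 fold change 2.71, SE 0.134, edgeR adjusted p = 5.95e-12). AHNAK, a large scaffold protein, had 12, 14.4 and 14.4 CPM with STA9090+PIK75, against 109, 92.9 and 89 CPM with STA9090+BGT226 (log2 fold change -2.83). IGF2 had 3550, 3070 and 3300 CPM with STA9090+PIK75, against 6580, 6600 and 6480 CPM with STA9090+BGT226 (log2 fold change -0.99). HEXIM1 was lower with STA9090+PIK75 than with STA9090+BGT226 (-1.38), and SLC6A9 was higher (1.86).

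**Figure D5:**
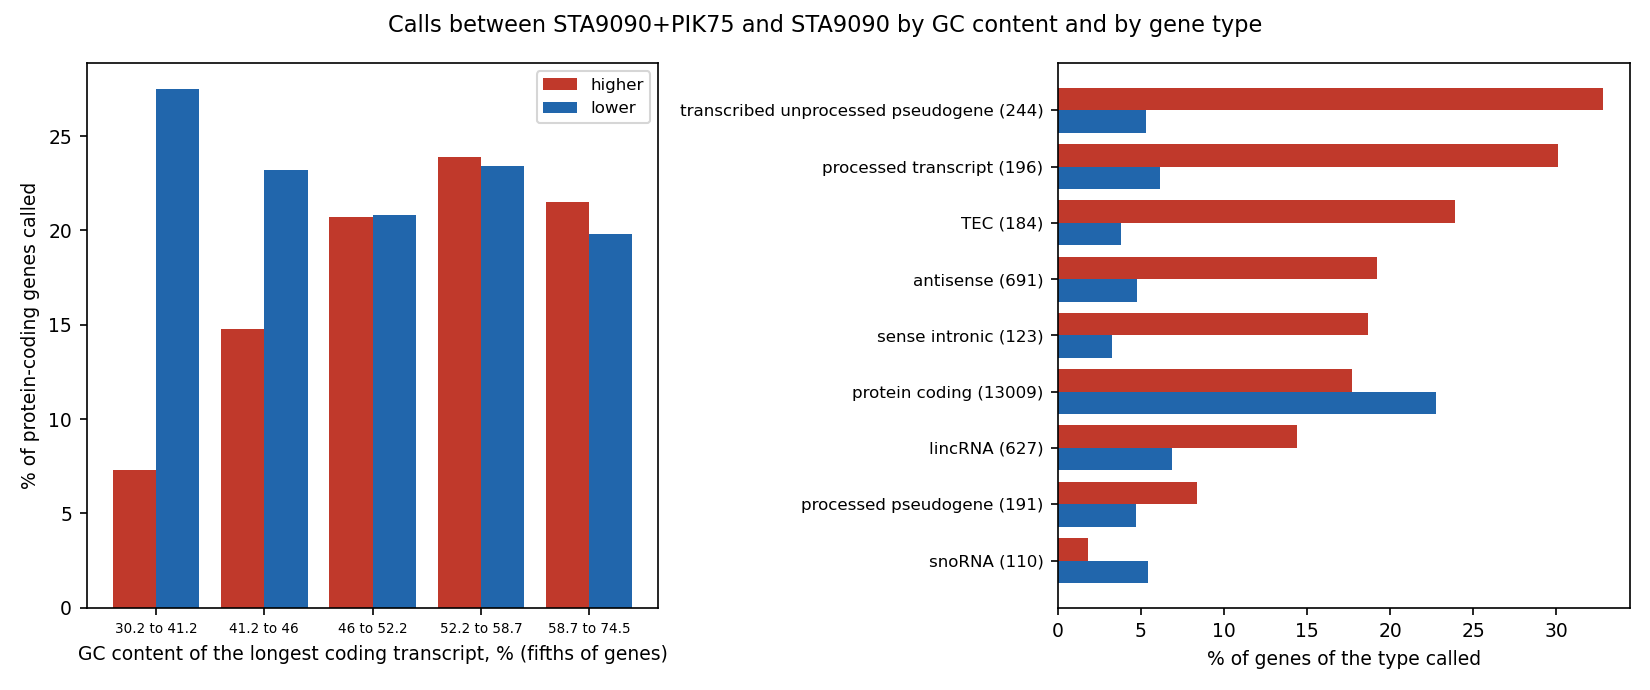
Share of genes higher or lower with STA9090+PIK75 than with STA9090 by transcript GC content among protein-coding genes in bins of equal size (left, % axis from 0) and by gene type (right). In the lowest GC bin 7.32% were higher and 27.5% lower, and among transcribed unprocessed pseudogenes 32.8% were higher and 5.33% lower.

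The calls were unevenly spread over gene types and transcript composition. Of 13009 protein-coding genes 17.7% were higher and 22.8% lower, against 19.2% and 4.78% of 691 antisense genes, 14.4% and 6.86% of 627 lincRNAs and 32.8% and 5.33% of 244 transcribed unprocessed pseudogenes. Among 12902 protein-coding genes with an annotated coding transcript, split into 5 bins of equal size, the bin of lowest GC content (30.2 to 41.2%) had 7.32% higher and 27.5% lower, with a median log2 fold change of -0.15. The bin of highest GC content (58.7 to 74.5%) had 21.5% higher and 19.8% lower, with a median of 0.04. By gene length, the bin of longest genes had 11.2% higher and 29.5% lower. BGT226 added to STA9090, against the same STA9090 libraries, gave 43.9% higher and 3.28% lower among transcribed unprocessed pseudogenes, and 25.5% and 3.62% among antisense genes. In the bin of longest genes it gave 20.3% higher and 18.1% lower, and in that of lowest GC content 13.2% and 20.1%. The part of transcript composition and length in the calls of single genes was not tested.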

How the data were processed

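NCI-H295R cells were profiled by bulk sequencing of total RNA after depletion of ribosomal RNA, per the labels' protocols. Gene-level expected counts for all libraries were deposited as 1 table without normalization. Tools listed in the submitters' processing notes are STAR 2.7.0f, RSEM 1.3.1, bcl2fastq 2.20 and cutadapt 1.18, with the build hg38. Neither settings nor annotation release is given in the sources used here. Reads of overlapping, antisense or near-identical genes may therefore be divided in ways the table does not show. Of the gene IDs, 99.54% are in GENCODE 29 without their version, which supplied gene types and positions on GRCh38.

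Expected counts were rounded (library totals changed by at most 0.000381%). With R 4.3.3, edgeR 4.0.16 (limma 3.58.1) and filterByExpr (minimum count 10, minimum total 15), all 18 libraries were fitted with 1 mean per group and TMM scaling, and the quasi-likelihood F-test was adjusted by Benjamini-Hochberg over all genes tested, at a threshold of 0.05. The biological coefficient of variation was 10.58%. The script was tested on simulated data. SE is the log2 fold change over the root of F. The genes compared, the gene lists and the genes named were chosen with earlier results of these data known. Named genes were drawn from the 14 largest rises and falls among protein-coding genes with non-overlapping groups and a mean of 5 CPM or more, 4 each of other types, up to 4 called members of each list and up to 2 against its median, the 5 largest interactions each way, the 4 largest differences between the combinations each way, and a list of genes named whatever their result. H2BFS, CU639417.1 and NME1-NME2 met the rule and are left out of the results because near-identical or overlapping genes share their reads. Promoters were searched for 3 motifs, the half-site AAGGNCA, TCACNCCAC and GAANNTTC, on both strands, and matches of different motifs overlapped in 2 promoters.

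Replicate numbers were not used to pair the libraries, since the deviations of same-numbered STA9090+PIK75 and STA9090 libraries had correlations of -0.17, -0.04 and -0.10. Such values cannot show how the cultures were handled. Alternatives were RLE size factors, no filter, a stricter filter of 1 CPM in 3 libraries, the 50 most counted genes left out, the compared groups alone, DESeq2 1.42.0, a replicate block, and leaving out each library.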

Additional observations from a re-analysis of the deposited data

Results flagged for a closer look

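The change with PIK75 differed with and without STA9090 for 64 of 140 genes assessed by name (edgeR's interaction test, adjusted p under 0.05). These genes were named partly for large changes or interactions in these data, so that share is not a result about the response. Over all genes tested 3.54% had a positive and 5.73% a negative interaction. Values in brackets are the log2 fold change on STA9090 minus that without STA9090. Among steroid and lipid genes the value was negative for INHA (-1.45), MC2R (-1.06), SCARB1 (-0.79), CYP11A1 (-0.76), HSD3B2 (-0.72), CYP17A1 (-0.58), STAR (-0.57), MSMO1 (-0.67), LSS (-0.65), EBP (-0.50), FDPS (-0.47), FADS1 (-0.43) and SCD (-0.42). Among matrix, receptor and growth genes the value was negative for COL1A1 (-2.47), COL4A1 (-1.11), COL4A2 (-1.0), COL18A1 (-0.88), TGM2 (-1.10), LGALS1 (-1.02), FGFR4 (-1.20), IGFBP2 (-1.07), PEG3 (-0.97), LGR4 (-0.72), CTNNB1 (-0.50), APCDD1 (-0.42), AHNAK (-0.76) and DMD (-1.47). Among stress, clock, cell cycle and metabolic genes the value was negative for SESN3 (-1.16), CAT (-0.78), NQO1 (-0.58), ATF5 (-0.67), EDEM1 (-0.67), LDHA (-0.54), BNIP3 (-0.38), ATP6V1A (-0.37), NR1D1 (-0.60), CCNA2 (-0.49), CCNB1 (-0.46), PLK1 (-0.36) and FOSL2 (-0.49). It was also negative for FAM166B (-2.04), TMPRSS9 (-1.28) and LPA (-0.94). Among ERK, immediate early and elongation genes it was positive for EGR1 (1.47), SPRY4 (1.3), FOSB (1.22), ETV5 (0.61), DUSP5 (0.56), CDK9 (0.34) and CDK12 (0.41). The other positive values were those of MCM5 (0.39), HLA-E (0.43), SLC3A2 (0.44), TSR1 (0.46), NOP2 (0.50), ZNF213-AS1 (0.58), SOX4 (0.61), PES1 (0.63), NID1 (0.68), ASNS (0.72), HSPA1A (0.78), MYB (0.82), POLR2J4 (1.07) and SLC35F2 (1.22). The first group of genes is lower on STA9090 in each case, DMD, IGFBP2 and HSPA1A were called in opposite directions with and without STA9090, and FOSL2 and APCDD1 are higher in both with a smaller rise on STA9090. Reads of HSPA1A, HLA-E, POLR2J4 and LPA may be shared with near-identical genes.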

How the results depend on the processing

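With PIK75 added to STA9090, leaving out 1 library in turn gave 2185 to 2518 higher and 2654 to 2973 lower genes, RLE size factors 2818 and 3100, no filter 2641 and 3250, the stricter filter 2793 and 3074, the 50 most counted genes left out 2744 and 3195, the compared groups alone 2312 and 2618, and DESeq2 2450 and 2807. No gene was called in the opposite direction under any of these, and between 78.6% and 99.5% of the calls were kept. A fit with the replicate number as a block gave 2746 and 3042, with 96.3% of calls kept, although no pairing by number was seen between the STA9090+PIK75 and STA9090 libraries. For PIK75 against untreated cells the higher count ran from 853 (without untreated replicate 1) to 1257, and the lower count was 1066 with the compared groups alone. The interaction was positive for 344 (without STA9090+PIK75 replicate 1) to 571 genes and for 294 with the compared groups alone, and negative for 515 there. These fits have fewer samples. The log2 fold change of HSP90AB1, near 0, was -0.02 with no filter, 0.00 with the 50 most counted genes left out, -0.01 without STA9090 replicate 1 or STA9090+PIK75 replicate 3 and -0.05 without STA9090 replicate 2, and that of BCL2L1 was 0.06 without STA9090 replicate 3 and 0.05 without STA9090+PIK75 replicate 1, in a range of -0.09 to 0.06 over such omissions. The calls of HSP90AA1, HSPA1A and IGF2 were lost with the compared groups alone (0.30, 0.33 and -0.24), that of IRS2 there and with no filter (0.28 and 0.26), and that of IGF2 with no filter (-0.26). Depth limits genes of few reads, such as INHA and CRYAB, and the dose within combinations is not given in the sources used here.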

Other observations

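Of 40 nuclear-encoded respiratory chain subunits, 1 was higher and 4 were lower with STA9090+PIK75 than with STA9090 (median log2 fold change -0.13). The lower count was 2 without STA9090 replicate 2 or 3, 1 without STA9090+PIK75 replicate 2 or 3 and 9 with no filter, and the higher count was 0 without STA9090 replicate 1 or STA9090+PIK75 replicate 2. Of 13 mitochondrially encoded mRNAs 0 were called in either direction by edgeR or DESeq2 and 0 had an unadjusted p under 0.05, although 2 were called higher with no filter on low counts. After BGT226 the nuclear-encoded list had 0 higher and 32 lower genes against the same STA9090 libraries. Of 24 interferon response and antigen presentation genes, 5 were higher and 7 were lower (median -0.14), beside 17.7% and 19.8% of all genes. Without STA9090 replicate 2 or 3 or STA9090+PIK75 replicate 1 or 2, 3 were higher. The peptide loading factor TAPBP had a log2 fold change of -0.52, and HLA-E, whose reads may be shared with other HLA genes, had 0.74. Of 16 neuroendocrine markers 1 was higher and 4 were lower, with the vesicle protein SYP at -0.64 and the G protein subunit GNAO1 at -0.93. The list of markers of other cell types had 4 of 21 genes tested, of which 1 was higher and 1, COL1A1, was lower. The higher count was 0 without any 1 library other than STA9090+PIK75 replicate 1, and also with DESeq2, the replicate block, either other filter or the compared groups alone.

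The motif GAANNTTC, part of the element bound by heat shock factors, was found in 8 of 25 promoters of the listed heat shock chaperones (32%) and in 502 of 10640 promoters of all genes tested (4.72%). TCACNCCAC, a sterol regulatory element, was found in 1 of 18 cholesterol gene promoters (5.56%) and in 116 of all (1.09%). That share rests on 1 promoter, and it was 15.4% (2 of 13) for steroidogenesis and 5.26% (1 of 19) for immediate early factors. The results for both motifs are descriptions of letters in a window of 300 bases.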
